A study of Mus musculus with 4 samples.

Results

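Chemokines and their receptors were followed in whole E14.5 mouse skin, the stage at which primary hair follicles begin to form. The family was taken as every probe set on the array whose platform gene symbol is Cxcl, Ccl, Cxcr or Ccr followed by a number, or Cx3cl1 or Cx3cr1, with no filter on signal. That gave 80 of the 45037 probe sets, of which 54 belong to ligands and 26 to receptors. Of these, 76 carry 1 gene symbol and stand for 48 genes, and 4 carry several symbols and name no single gene. Members were chosen by symbol alone and no array value entered the choice of the 80, but the family was picked with earlier results of the same comparison known. Its p-values therefore describe single probe sets, and its counts are printed beside those of the whole array as a description.

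Skin RNA of 4 embryos was hybridised to Affymetrix Mouse Genome 430 2.0 arrays, 1 embryo to an array. The 2 mutants were KRT14-Cre Ctnnb1(Ex3)fl/+, in which a recombinase driven by a keratin promoter of epithelial cells removes the exon of beta-catenin that carries its degradation signals. The 2 controls were littermates, and the labels do not say which of the alleles they carried, nor the strain. Cre is thus aimed at the epithelium, while the RNA came from epidermis and dermis together: Col3a1, a collagen of the dermis, read from 7229 to 9491. The mean signal of an array was 219 to 227. In mutant replicate 1 the 6 cartilage marker genes summed to 8773, against 128 to 299 on the other arrays, so each call below was also made without each array in turn. With 2 arrays a group the precision is limited, and a permutation test of 2 against 2 cannot give a two-sided p under 0.333.

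Chemokines are small secreted proteins that bind heparan sulphate on cell surfaces and steer migrating cells through receptors coupled to G proteins. They are named for the cysteines near their amino end, as CXC, CC or CX3C ligands, and most ligands share receptors with others. In skin the ligands come from keratinocytes, fibroblasts, vessels and resident immune cells, while most receptors sit on leukocytes. Cxcl12 and its receptor Cxcr4 also serve cells other than leukocytes during development.

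Mutant skin had more signal of the CXC ligands Cxcl12 and Cxcl13 and of the CC ligand Ccl9, and less of the CXC ligand Cxcl14 and of 1 probe set shared by the Ccl21 genes. Of the 80 probe sets, 32 reached the mean signal of 31.1 needed for testing, and 48 did not. Of the 32, 5 passed the limma threshold (adjusted p under 0.05 over all tested probe sets) as higher and 2 as lower in mutant skin. Over the whole array 4.10% of tested probe sets were called higher and 2.93% lower, 7.03% in all. All 7 called probe sets belong to ligands, as do 25 of the 32 tested members. A probe set that passed the filter only through 1 group had to differ between them, so these counts stand for the tested members alone. Every change is relative to whole-array signal. Scaled instead to the spiked-in poly-A RNA, the median log2 change of all tested probe sets moved from -0.0078 to 1.02, the calls became 30 higher and none lower among the members, at an unadjusted p as well (0 lower), and 99.2% of all limma calls were rises, against 58.3% on the scale used here.

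**Figure D1:**
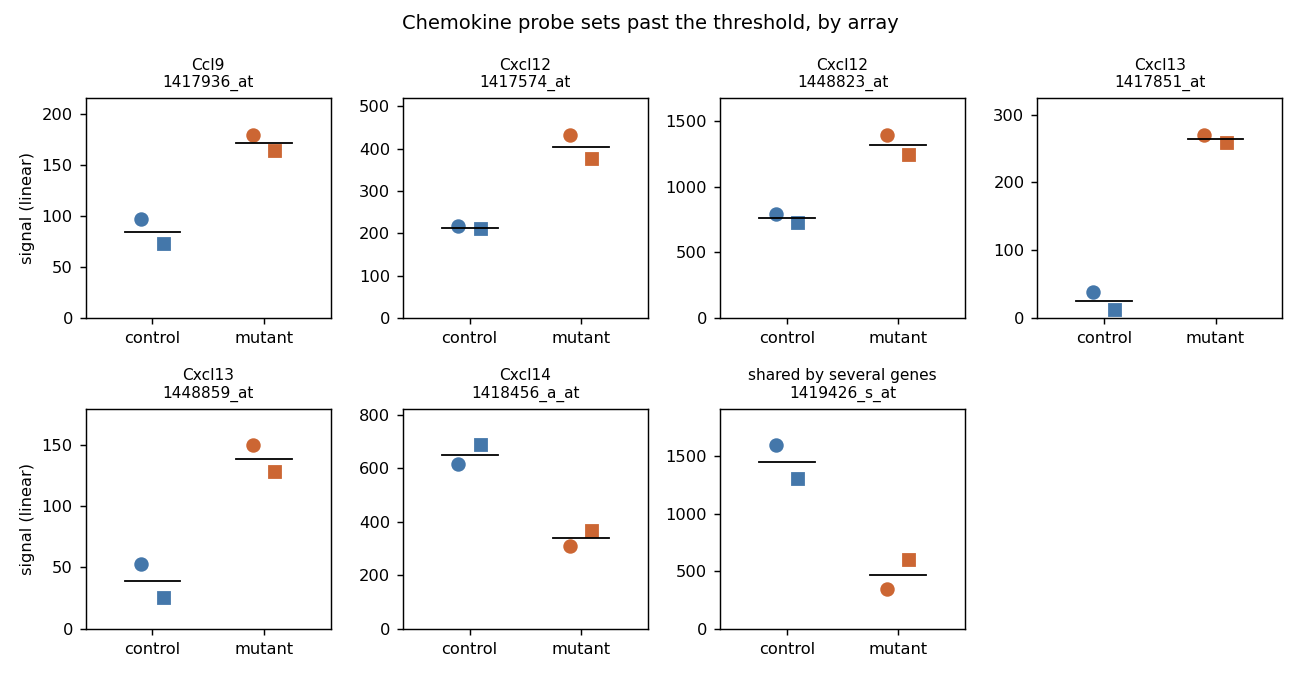
Linear signal (vertical axes, starting at 0) of the 7 chemokine probe sets that passed the limma threshold, by group; circles are replicate 1, squares replicate 2 and lines the mean of 2 arrays. In each panel the mutant pair lies on the same side of both controls, above for Ccl9, Cxcl12 and Cxcl13, below for Cxcl14 and the shared probe set; the Cxcl14 change turns to 0.12 (log2) on the poly-A spike scale.

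Cxcl13, which draws B cells through Cxcr5, showed the largest log2 fold change among the tested members. Its probe set 1417851_at read 38.3 and 11.4 in the controls and 270 and 258 in the mutants. The mutant arrays lay close together and far above both controls, which differed from each other. The means were 24.9 ± 19.0 and 264 ± 8.57 (SD, n = 2 per group), a ratio of 10.6, and the log2 fold change was 3.20 (SE 0.38, limma adjusted p = 0.00568). The control mean is under the filter of 31.1, so this probe set was tested because of its mutant signal, and its log2 fold change was 2.56 without control replicate 2 and 3.84 without control replicate 1. The gene's other probe set, 1448859_at, read 52.6 and 25.5 in the controls and 149 and 128 in the mutants. It rose by a log2 fold change of 1.71 (SE 0.29, limma adjusted p = 0.0212), again without overlap of the groups; with no filter on signal the call ended (adjusted p = 0.0553).

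Cxcl12, the ligand of Cxcr4, is known from dermal fibroblasts and vessel walls. Its probe set 1448823_at read 791 and 725 in the controls and 1395 and 1244 in the mutants. The means of 758 ± 46.4 and 1319 ± 107 (SD, n = 2 per group) gave a log2 fold change of 0.79 (SE 0.11, limma adjusted p = 0.0104). The probe set 1417574_at read 217 and 210 in the controls and 433 and 375 in the mutants, a log2 fold change of 0.89 (SE 0.13, limma adjusted p = 0.0108). Both probe sets thus had mutants above controls with gaps wider than the spread within either group, and both kept their calls without any 1 array. The remaining Cxcl12 probe set, 1439084_at, read 2.22 to 16.2 and was not tested. The 7 fibroblast markers summed to 32055 and 36717 in the controls and to 26170 and 30110 in the mutants, and the 10 endothelial markers to 3205 and 3239 against 3657 and 4246, and the part of either cell type in the Cxcl12 values was not tested. The endothelial markers went both ways, and of 9 tested only Tek passed. Emcn and Cdh5 had log2 fold changes of 0.60 and 0.48, and Kdr and Egfl7 of -0.17 and -0.03. Of the 10, both mutants lay above both controls for 5 and below for 2, against 24.1% and 22.5% of the whole array. The endothelial sum of mutant replicate 2 holds Lyve1 at 1137, against 654 to 762 on the other arrays. In whole skin more cells of a type and more RNA per cell cannot be told apart.

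Ccl9 attracts myeloid cells and acts through Ccr1. Its probe set 1417936_at read 96.9 and 72.2 in the controls and 180 and 164 in the mutants, with a log2 fold change of 0.97 (SE 0.18, limma adjusted p = 0.0278). The second probe set, 1448898_at, read 61.6 and 37.0 in the controls and 115 and 100.5 in the mutants, with a similar log2 fold change of 1.05 (SE 0.25) just outside the threshold (limma adjusted p = 0.0546). These 2 Ccl9 probe sets are the members nearest to the threshold on either side. The groups did not overlap on either. The call of 1417936_at ended when control replicate 2 was left out (adjusted p = 0.0548), and likewise for mutant replicates 1 and 2 (adjusted p = 0.111 and 0.0670) and with no filter on signal (adjusted p = 0.0601), and its log2 fold change ran from 0.78 to 1.17 over the 4 fits that left out 1 array. Among the family genes on chromosome 11 in the reference annotation, Ccl9 lies between Ccl5 and Ccl6, and Ccl3 and Ccl4 follow Ccl6. Ccl5 read from 1.29 to 2.78 on single arrays, with overlapping groups, and was not tested. None of the neighbours Ccl6, Ccl3 and Ccl4 passed, at limma adjusted p between 0.200 and 0.487. The tested probe set of each had both mutants above both controls, an order held by 26.6% of all tested probe sets. Ccl3 and Ccl6 had control means of 25.6 and 26.2, under the filter, and were tested only through their mutant signal, and the groups overlapped on the second Ccl6 probe set.

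The promoters of these 3 ligand genes are printed because the genes rose together; each is the 250 bases before the gene's start, 5′ to 3′ on the gene's strand, from RefSeq (GRCm38.p6). Capitals mark the core CTTTGA (or TCAAAG, the same core read from the other strand) bound by TCF and LEF factors, the partners of beta-catenin.
Cxcl12 promoter, chr6:117168285-117168534, plus strand: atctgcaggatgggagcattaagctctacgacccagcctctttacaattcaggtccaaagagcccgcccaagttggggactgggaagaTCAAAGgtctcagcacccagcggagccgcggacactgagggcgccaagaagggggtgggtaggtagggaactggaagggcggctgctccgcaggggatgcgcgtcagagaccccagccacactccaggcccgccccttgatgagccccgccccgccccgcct
Cxcl13 promoter, chr5:95956689-95956938, plus strand: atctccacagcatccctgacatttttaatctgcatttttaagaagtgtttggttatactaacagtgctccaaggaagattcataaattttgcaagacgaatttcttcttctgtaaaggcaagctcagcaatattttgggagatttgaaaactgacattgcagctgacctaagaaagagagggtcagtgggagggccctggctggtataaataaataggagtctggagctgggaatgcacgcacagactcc
Ccl9 promoter, chr11:83578637-83578886, minus strand: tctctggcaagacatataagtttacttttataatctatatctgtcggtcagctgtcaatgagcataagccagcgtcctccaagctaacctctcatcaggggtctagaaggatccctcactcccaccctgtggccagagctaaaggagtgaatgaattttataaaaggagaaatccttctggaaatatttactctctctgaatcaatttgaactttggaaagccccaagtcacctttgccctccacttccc

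The Cxcl12 window holds 1 such core, starting 162 bases before the gene's start, and the windows of Cxcl13 and Ccl9 hold none. Of the 48 family genes 35 matched the promoter table, and 8 of them (22.9%) hold the core, against 13.8% of all 32851 promoters of the same length. The looser NF-kappaB pattern, GGG followed by CC with 5 bases of any kind between them, searched on both strands and free to overlap the core, occurs in each of the 3 printed windows, in 22 of the 35 (62.9%) and in 45.8% of all promoters. A family gene was counted if any of its listed promoters held the pattern, while the shares of all promoters count each promoter singly. The family shares and the shares of all promoters are thus not like for like. The matches are of letters and were not tested as sites.

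Cxcl14, a chemokine made by keratinocytes and other epithelial cells, was lower in mutant skin on both of its probe sets, and 1 of them passed. The probe set 1418456_a_at read 616 and 686 in the controls and 311 and 366 in the mutants. The means of 651 ± 49.1 and 338 ± 38.8 (SD, n = 2 per group) were 1.92-fold apart, and the log2 fold change was -0.93 (SE 0.13, limma adjusted p = 0.00955). The probe set 1418457_at read 1173 and 1261 in the controls and 845 and 1036 in the mutants, a smaller log2 fold change of -0.37 (SE 0.13, limma adjusted p = 0.143) that missed the threshold. The groups did not overlap on either probe set. On the poly-A spike scale the log2 fold changes were 0.12 and 0.69, so the direction is relative to the array as a whole. The 7 basal keratinocyte markers summed to 7265 and 10344 in the controls and to 3901 and 5253 in the mutants. That sum fell in the same arrays as Cxcl14, and its part in the result was not tested.

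The probe set 1419426_s_at carries 9 gene symbols in the platform table, 4 of them near-identical Ccl21 copies, so its signal cannot be given to any 1 gene. Ccl21 proteins are ligands of Ccr7 made by lymphatic vessels and lymphoid stroma. The probe set read 1593 and 1298 in the controls and 348 and 594 in the mutants. The means of 1445 ± 209 and 471 ± 174 (SD, n = 2 per group) were 3.07-fold apart, the largest fall among the tested members. Its log2 fold change was -1.64 (SE 0.24, limma adjusted p = 0.0124). The call held without any 1 array and ended on the poly-A spike scale (log2 fold change -0.58, adjusted p = 0.0700). Of the lymphatic markers, Lyve1 read 677 and 762 in the controls and 654 and 1137 in the mutants (limma adjusted p = 0.580). Prox1, which specifies lymphatic cells, read 11.7 to 19.6 on all arrays and was not tested. The receptor gene Ccr7 read 2.12 and 0.77 in the controls and 9.76 and 26.5 in the mutants, all under the filter, and was not tested either.

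The skin-made CC ligand Ccl27a, which acts through Ccr10, read 60.1 and 74.2 in the controls and 107 and 78.8 in the mutants on the probe set 1434962_x_at. The mutants lay above the controls by a small gap, and the log2 fold change of 0.42 (SE 0.21, limma adjusted p = 0.297) missed the threshold. A pair of further probe sets carry the symbols of several Ccl27 copies, with a log2 fold change of 0.62 on 1 (adjusted p = 0.160) and 0.44 on the other (adjusted p = 0.339). Ccr10 read 6.94 and 15.1 in the controls and 3.12 and 8.78 in the mutants and was not tested.

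Ccl2 and Ccl12, both ligands of the monocyte receptor Ccr2, did not pass. Ccl2 read 76.9 and 95.8 in the controls and 64.8 and 92.6 in the mutants, with overlapping groups and a log2 fold change of -0.13 (SE 0.22, limma adjusted p = 0.776). Ccl12 read 44.8 and 51.3 in the controls and 60.8 and 70.2 in the mutants, without overlap but with a log2 fold change of 0.39 (SE 0.19, limma adjusted p = 0.288). Ccl3, a further ligand of Ccr1, read 29.0 and 22.3 against 46.9 and 37.8, a log2 fold change of 0.59 (SE 0.23, limma adjusted p = 0.200). Cx3cl1, the membrane-bound ligand of Cx3cr1, read 45.8 and 49.9 in the controls and 39.7 and 28.9 in the mutants on its tested probe set. Its log2 fold change was -0.42 (SE 0.22, limma adjusted p = 0.329), and its other 3 probe sets were too dim to be tested.

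**Figure D2:**
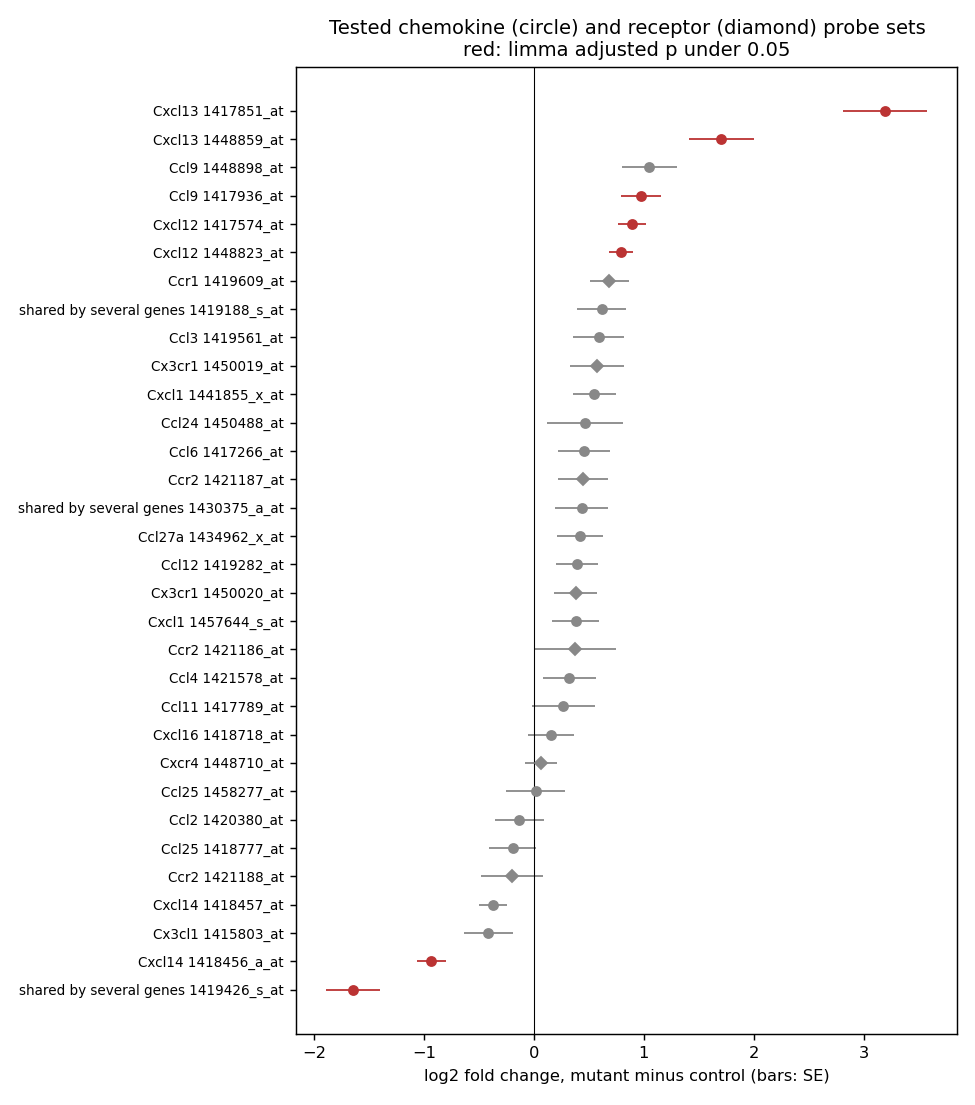
Log2 fold change, mutant minus control (horizontal axis, bars SE from the limma fit), of the 32 tested members, circles for ligands and diamonds for receptors; red marks the 7 past the threshold. The values run from -1.64 for the shared probe set 1419426_s_at to 3.20 for Cxcl13, and all 7 receptor probe sets are grey; on the poly-A spike scale the median of all tested probe sets moves from -0.0078 to 1.02, and the Cxcl14, Cx3cl1, Ccl2 and lowest Ccr2 values turn positive.

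No receptor passed. Of the 26 receptor probe sets 7 were tested, and none was called by limma, while 1 had an unadjusted p under 0.05. Over the whole array 7.03% of tested probe sets were called and 22.9% had an unadjusted p under 0.05. That one is the probe set 1419609_at of Ccr1, a receptor of monocytes and macrophages, which read 47.7 and 50.3 in the controls and 86.4 and 81.0 in the mutants. Both groups were tight and apart, and the log2 fold change was 0.69 (SE 0.18, limma adjusted p = 0.0704). A second Ccr1 probe set read 7.19 to 9.31 and was not tested.

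Cxcr4 read 124 and 112 in the controls and 126 and 122 in the mutants, with overlapping groups. Its log2 fold change was 0.06 (SE 0.15, limma adjusted p = 0.845), and the 95% interval ran from -0.29 to 0.42. A change in Cxcr4 of the size seen in its ligand Cxcl12 lies outside that interval, though the difference between ligand and receptor was not tested. Cxcr5, the receptor of Cxcl13, read 0.99 and 6.54 in the controls and 13.0 and 9.83 in the mutants, under the filter on every array.

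Cx3cr1, carried by monocytes and tissue macrophages, read 142 and 114 in the controls and 196 and 143 in the mutants on 1450020_at (log2 fold change 0.38, SE 0.20, limma adjusted p = 0.312). On 1450019_at it read 36.8 and 23.4 against 47.9 and 47.9 (log2 fold change 0.58, SE 0.25, limma adjusted p = 0.225). Mutants lay above controls on both, by a small margin on the first. The control mean of 1450019_at, 30.1, is under the filter, so it was tested only through its mutant signal. The tested probe sets of Ccr2 differed in direction. On 1421186_at the controls alone spanned 37.9 to 96.1 and the mutants read 87.3 and 76.4 (log2 fold change 0.38, SE 0.37, limma adjusted p = 0.604). The log2 fold change was 0.45 on 1421187_at (adjusted p = 0.307) and -0.20 on 1421188_at (adjusted p = 0.727).

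**Figure D3:**
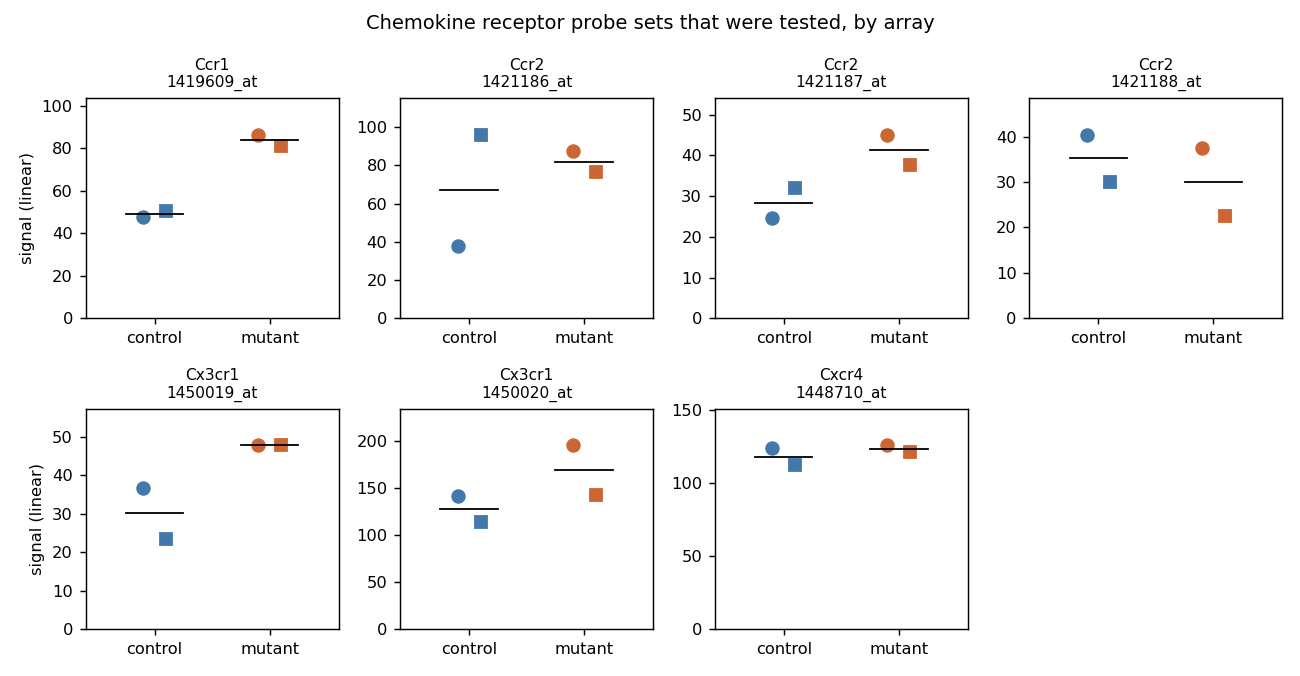
Linear signal (vertical axes, starting at 0) of the 7 tested receptor probe sets by group; circles are replicate 1, squares replicate 2 and lines the mean of 2 arrays. Ccr1 has the mutants at 81.0 and 86.4 above controls at 47.7 and 50.3, Cxcr4 overlaps, and the Ccr2 probe sets differ in direction.

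The other tested members were Ccl4, Ccl6, Ccl11, Ccl24, Ccl25, Cxcl1 and Cxcl16, and none of them passed. Over all 25 tested probe sets that did not pass, those above included, log2 fold changes ran from -0.42 to 1.05, with 20 above 0 and 5 below. The median log2 fold change was 0.41 over the 32 tested members, against -0.0078 over all tested probe sets. Over all 80 members, fitted without the filter, it was 0.27, against 0.0064 over all 45037. Both mutants lay above both controls for 32 of the 80 and below for 14, where the whole array gave 24.1% and 22.5%. Among the 32 tested members these orders held for 18 and 5, against 26.6% and 27.7% of all tested probe sets. Without the filter 3 members were called higher and 2 lower, against 1.24% and 0.717% of the whole array.

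The 48 untested probe sets were dim. The 29 of ligands read between 0.43 and 36.7 on single arrays and the 19 of receptors between 0.41 and 45.6. For 28 of the 48 genes no probe set was tested. Among these were the interferon-induced ligands Cxcl9, Cxcl10 and Cxcl11 with their receptor Cxcr3, the neutrophil attractants Cxcl2, Cxcl3, Cxcl5 and Cxcl15 with the receptor Cxcr2, and the T cell ligands Ccl17, Ccl20 and Ccl22 with the receptors Ccr4 and Ccr6. Their orders enter the counts over all 80 members given above, and none is read for a single gene.

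**Figure D4:**
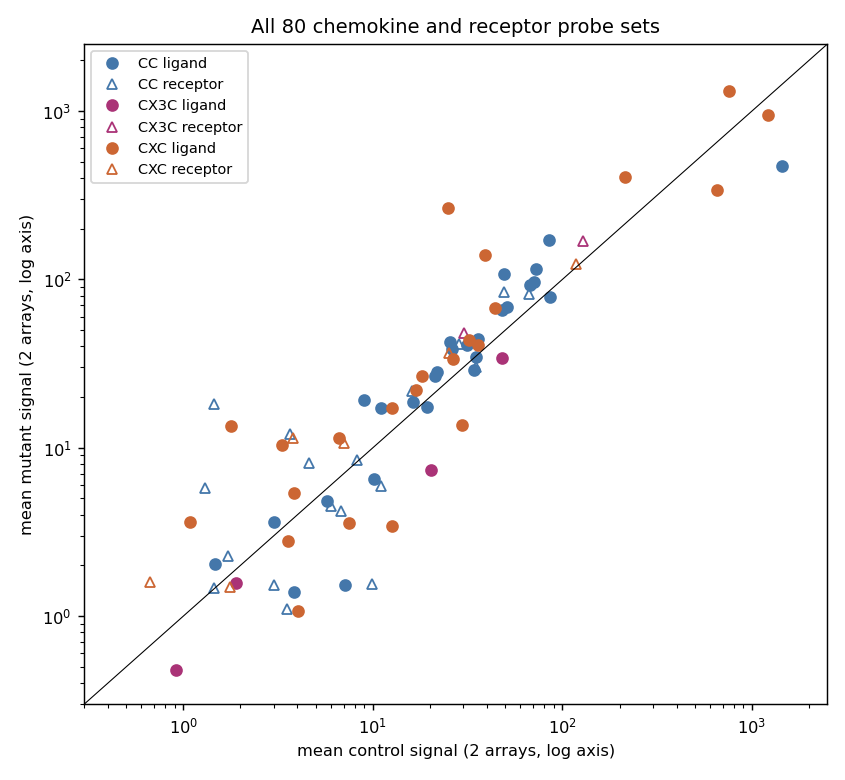
Mean mutant signal against mean control signal (2 arrays each, both axes log) of all 80 members; filled circles are ligands, open triangles receptors, colours the CXC, CC and CX3C classes, and the line marks equal signal. The 2 Cxcl13 probe sets stand above the line at control means of 24.9 and 39.0, the shared probe set 1419426_s_at below it at 1445, and the scatter widens at dim signals.

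Genes around the family were read from lists written from general knowledge. For comparison, 4.10% of all tested probe sets were called higher and 2.93% lower. Of 9 chemokine family genes under other names 4 were tested, 1 rose and 3 did not pass. Those 3 were Pf4, Ackr3 and Ppbp, with log2 fold changes of 0.62, -0.19 and 0.06 (limma adjusted p = 0.0734, 0.531 and 0.899). Pf4 read 706 and 592 in the controls and 870 and 1140 in the mutants. Ackr3 read 519 and 687 against 491 and 556, with overlapping groups. Ackr1, a receptor of venules and red cells that binds many chemokines without signalling, read 38.0 and 38.2 in the controls and 78.9 and 111 in the mutants (log2 fold change 1.15, limma adjusted p = 0.0279). Its call ended with control replicate 2 left out and with mutant replicate 2 left out. Of 22 measured genes of receptor signalling 20 were tested, 4 rose, 1 fell and 15 missed the threshold, and the median log2 fold change was 0.16. Grk3, a kinase that desensitises receptors, fell from 192 and 200.1 to 90.9 and 69.9 (log2 fold change -1.22, limma adjusted p = 0.0103) and kept its call without any 1 array. The 4 that rose were Rgs1, Dock2, Pik3cg and Rac2, all known from leukocytes, with log2 fold changes of 0.79 to 0.92. Each lost its call in at least 3 of the 4 fits without 1 array, and without control replicate 2 or mutant replicate 2 none of the list rose by limma.

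Of 15 measured genes that present or cleave chemokines all were tested, 2 rose and 13 missed the threshold, and the median log2 fold change was 0.15. Mmp9, a matrix protease that also trims chemokines, rose from 24.0 and 14.2 to 126 and 101 (log2 fold change 2.19, limma adjusted p = 0.00481) and kept its call without any 1 array. Its control mean of 19.1 is under the filter, so it too was tested only through its mutant signal. The proteoglycan Sdc2 rose by 0.52 (limma adjusted p = 0.0475) and lost its call without control replicate 2, mutant replicate 1 or mutant replicate 2 (adjusted p = 0.119, 0.203 and 0.146). Of 16 measured genes of the NF-kappaB response 9 were tested, 2 fell and 7 did not pass. These were Ltb, with a log2 fold change of -1.32 (limma adjusted p = 0.0335), and the adhesion gene Vcam1, with -0.70 (limma adjusted p = 0.0413). Ltb had a mutant mean of 22.1, under the filter, so it was tested only through its control signal. Neither Ltb nor Vcam1 was called with control replicate 2 or with mutant replicate 1 left out. The median log2 fold change of the 9 tested NF-kappaB genes was -0.42. An unadjusted limma p under 0.05 was reached by 4 of them, all lower (22.9% of all tested probe sets, either way). Both mutants lay below both controls for 8 of the 16 and above for 3, against 22.5% and 24.1% of the whole array. Of 14 measured interferon response genes 10 were tested and none passed by limma, while 3 had an unadjusted p under 0.05 (22.9% of all tested probe sets did). The median log2 fold change of the tested genes was 0.40. It includes Ifit3 and Gbp2, whose control means of 25.9 and 29.1 are under the filter, so they were tested only through their mutant signal. Over all 14 measured genes, fitted without the filter, the median was 0.49. Both mutants lay above both controls for 10 of the 14 and below for 1, against 24.1% and 22.5% of the whole array. Irf1 read 146 and 145 in the controls and 186 and 153 in the mutants.

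Macrophage markers were higher in mutant skin, beside the call of Ccl9. Of 12 macrophage markers, all tested, 8 rose and 4 did not pass, where 4.10% of all tested probe sets were called higher. All 12 had both mutants above both controls, an order held by 26.6% of all tested probe sets. C1qc, Fcgr3 and Lyz2 rose by log2 fold changes of 1.05, 1.04 and 1.02 (limma adjusted p = 0.0104, 0.0424 and 0.0253). The 12 summed to 4681 and 3649 in the controls and to 6709 and 7821 in the mutants, 1.74-fold apart in their means, where the ratio of means was 2.03 for Ccl9 (1417936_at). For the single markers the ratio of means ran from 1.27 (Aif1) to 2.10 (C1qc). Among members known from or acting on these cells that did not pass, it was 1.71 for Ccr1 (1419609_at) and 1.33 and 1.59 for Cx3cr1. It was 1.22, 1.46 and 0.85 for the tested Ccr2 probe sets, 1.36 for Ccl12 and 0.91 for Ccl2. The part of macrophage number in those values was not tested. The count of 8 became 10 without control replicate 1, 5 without control replicate 2, 7 without mutant replicate 1 and 2 without mutant replicate 2, and it was 2 with no filter on signal, C1qc and Tyrobp. Fcgr3 missed the threshold without control replicate 2 or mutant replicate 2 (limma adjusted p = 0.0781 and 0.112), and Lyz2 without mutant replicate 2 (limma adjusted p = 0.0527).

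Markers of other leukocytes gave fewer calls. Of 7 measured lymphocyte markers only the pan-leukocyte gene Ptprc reached the filter. It rose from 111 and 133 to 207 and 198 (log2 fold change 0.70, limma adjusted p = 0.0417). With control replicate 1, mutant replicate 1 or mutant replicate 2 left out it was not called (adjusted p = 0.0687, 0.178 and 0.140). Cd3e and Cd79a, which define T and B cells, read 10.1 or less on every array. Of the other untested markers, Rag1, which cuts antigen receptor genes in developing lymphocytes, read 0.70 and 1.86 in the controls and 28.1 and 38.6 in the mutants, and it was called higher with no filter on signal (limma adjusted p = 0.0205). Il7r read 11.7 and 11.8 against 20.8 and 18.4, without overlap. Of 5 dendritic and Langerhans cell markers 2 were tested and none passed by limma, with 1 unadjusted p under 0.05 (22.9% of all tested probe sets). That was H2-Aa, which read 66.1 and 56.7 in the controls and 45.8 and 22.7 in the mutants (log2 fold change -0.77, limma adjusted p = 0.188). Zbtb46, the brightest of the list, read 58.3 and 40.0 against 59.0 and 47.4 (log2 fold change 0.11, limma adjusted p = 0.830). Cd207, which defines Langerhans cells, read 1.42 to 2.23. Of the 6 mast cell markers, 5 were tested and Mcpt4 rose (log2 fold change 2.09, limma adjusted p = 0.0119). An unadjusted limma p under 0.05 was reached by 3 of the 5, all higher, against 22.9% of all tested probe sets. The others of these were Cma1 and Cpa3, with log2 fold changes of 1.07 and 0.48 (limma adjusted p = 0.0730 and 0.113). Kit and Ms4a2 had overlapping groups. The 6 summed to 2959 and 4319 in the controls and to 5121 and 6409 in the mutants, 1.58-fold apart in their means.

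The other cell types in skin had short lists, each with 1 or 2 calls except cartilage, which had none. Those calls made up a larger share of each list's tested genes than the 7.03% called among all tested probe sets. Several lists had members on both sides of 0. All 7 basal keratinocyte and all 6 skeletal muscle markers lay below 0, and all 6 cartilage markers above it. An unadjusted limma p under 0.05 was reached by 5 keratinocyte and 4 muscle markers, against 22.9% of all tested probe sets. Of 9 tested endothelial markers Tek rose (log2 fold change 1.07) and 8 did not pass. Of 5 pericyte markers Abcc9 rose (0.76) and 4 did not pass, Pdgfrb among them at -0.42 with both mutants below both controls. Of 5 tested melanoblast markers Pmel and Dct rose (1.34 and 1.19) and 3 did not pass, among them Sox10 at -0.74, also with both mutants below. Of 7 basal keratinocyte markers Krt15 and Col17a1 fell (-2.67 and -1.62) and 5 did not pass. Of 7 fibroblast markers Twist2 fell (-1.50) and 6 did not pass, and of 6 skeletal muscle markers Myh3 and Des fell (-1.58 and -0.85) and 4 did not pass. Of 3 measured Schwann cell markers S100b rose (2.59), Erbb3 fell (-0.95) and 1 did not pass. Of these, Abcc9, Krt15 and Des lost their calls without control replicate 2 (adjusted p = 0.109, 0.0757 and 0.0727), Abcc9 and Des also without mutant replicate 2 (adjusted p = 0.147 and 0.0590), and Des without mutant replicate 1 (adjusted p = 0.118). With no filter on signal, 9 of the 31 calls over all marker and pathway lists held, those of Grk3, Mmp9, C1qc, Tyrobp, Mcpt4, Tek, Col17a1, Twist2 and Erbb3. Pmel, Dct, S100b and Myh3, which were called without any 1 array, were then not called (limma adjusted p = 0.0545, 0.0531, 0.0539 and 0.0614). The 6 cartilage markers did not pass by limma, with 3 unadjusted p under 0.05 (22.9% of all tested probe sets). Col9a1 stood at 3261 in mutant replicate 1 against 75.5 to 125 elsewhere. Without mutant replicate 1, 4 chemokine members were called higher and 2 lower.

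**Figure D5:**
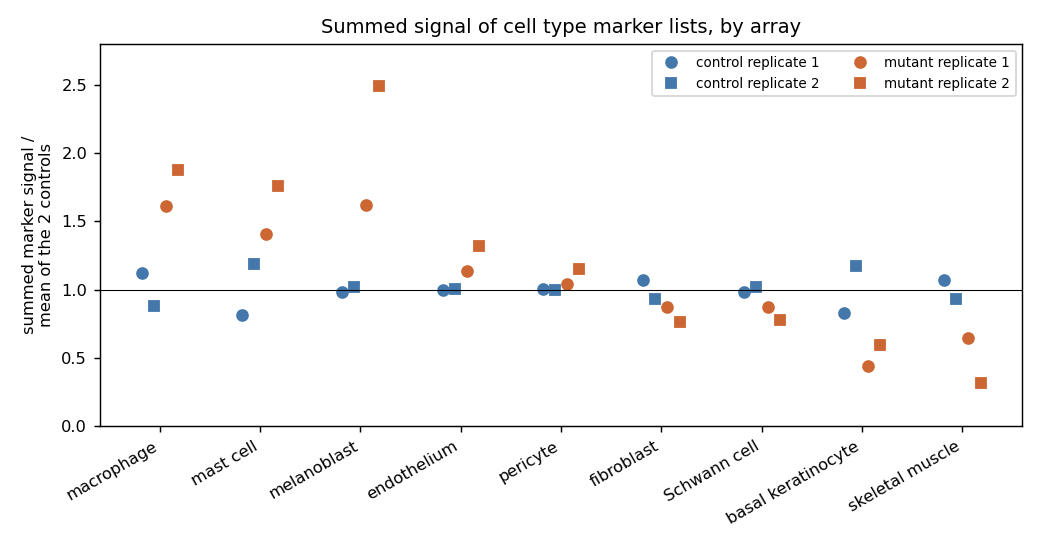
Summed signal of 9 cell type marker lists on each array, divided by the mean of the 2 control arrays (vertical axis, from 0); blue is control, orange mutant, circles replicate 1 and squares replicate 2. The mutant macrophage sums of 6709 and 7821 lie above the control sums of 4681 and 3649, and the mutant basal keratinocyte sums of 3901 and 5253 lie below 7265 and 10344; all sums are relative to whole-array signal.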

How the data were processed

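Skin RNA of 2 control and 2 mutant embryos was measured on 4 arrays. The deposited values are signal intensities, 1 per probe set and array on a linear scale, which the authors made with GCOS and MAS5 per the submitters' processing notes (versions not given). The scaling target is not given in the sources used here, and the values were not normalized again. The authors' deposited table of changed probe sets gives the ratio of mutant over control after GCRMA, for probe sets Present in at least 2 of 4 arrays with p under 0.01 and a change of at least 2-fold, per the file headers. It holds 170 probe sets as used here, of which 0 belong to this family, and its ratios were used for nothing else.

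Probe sets were named from the platform table (34945 with 1 gene symbol, 932 with several, 9160 unnamed here), and list genes were matched after updating symbols by gene identifier (GRCm38.p6, names and neighbours only). List genes were read on their probe set with the highest mean signal. Besides 64 array controls, 45037 probe sets were used. Values were analysed as log2(signal + 7.71). The offset is percentile 25 of all values and shrinks folds of dim genes. Probe sets with a mean signal at or above the median, 31.1, were tested, 22519 in all. R 4.3.3 and limma 3.58.1 (two-sided, eBayes with trend) gave log2 fold changes, SEs and Benjamini-Hochberg adjusted p over all tested probe sets, with a threshold of 0.05. The pipeline was tested on simulated data. Members and lists were chosen with earlier results of these data known. Named with array values were called members, the 10 genes with the highest group mean and their partner ligands or receptors, and from each list up to 3 called genes with the largest change or, where none passed, the gene with the highest mean; further list genes, such as markers that define a cell type, were added after their values were seen. Alternatives were other offsets (32 and 1), no filter, quantile and poly-A spike scaling, other variance models, leaving out each array, and the replicate number as a block.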

Additional observations from a re-analysis of the deposited data

How the results depend on the processing

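The counts of 5 higher and 2 lower members stayed within 1.5 times of those values under offsets of 32 and 1, quantile normalization, both other variance models and the replicate block. Without the filter 3 were higher, and 880 of all probe sets were called, more probe sets being tested. On the poly-A spike scale 30 were higher and 0 lower, and 20344 of all tested probe sets were called. With only probe sets of 1 gene symbol, 1 was lower. Leaving out 1 array gave 4 to 7 higher, 2 lower and 1007 to 2200 calls in all, 1007 without mutant replicate 1 and 1030 without mutant replicate 2, against 1583. Of the 7 called members, the Cxcl12 probe sets and 1417851_at of Cxcl13 kept their calls and directions under all 12 alternatives. Without the filter 1448859_at of Cxcl13 (adjusted p = 0.0553) and 1417936_at of Ccl9 (adjusted p = 0.0601) lost theirs, and the cause beyond the larger number tested was not examined. The replicate numbers of the labels pair no embryos by any stated link; arrays of the same number deviated together with r = 0.155 across probe sets, and with the replicate block 6 members were higher, 2 lower and 2443 of all tested probe sets called, with 1448898_at of Ccl9 passing (adjusted p = 0.0166).

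Log2 fold changes that turned their sign on the poly-A spike scale were those of Cxcl14 (0.69 on 1418457_at and 0.12 on 1418456_a_at), Ccl2 (0.84), Cx3cl1 (0.48) and Ccr2 on 1421188_at (0.67). Leaving out 1 array in turn gave ranges that crossed 0: -0.00061 to 0.13 for Cxcr4, -0.37 to 0.10 for Ccl2, -0.061 to 0.99 for Ccl24, -0.028 to 0.57 for Ccl11, -0.28 to 0.32 for Ccl25 on 1458277_at, -0.22 to 0.97 for Ccr2 on 1421186_at and -0.49 to 0.088 for Ccr2 on 1421188_at. Ccl25 on 1458277_at also turned with quantile normalization (-0.058). Apart from the Cxcl14 probe set 1418456_a_at, none of these had passed; the cause was not tested. The filter was set again in each alternative, and Ccl25 on 1418777_at fell under it on the poly-A spike scale and without either control, Ccl3 without mutant replicate 1, Ccl6 without mutant replicate 2 and Ccr2 on 1421188_at without control replicate 1, so these gave no value. Dim signals limit what the 48 untested members can show.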
